A study of Mus musculus with 16 samples.

Results

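Complement is described here through 8 genes in mouse bone marrow-derived macrophages: the C1q chain genes C1qa, C1qb and C1qc, the central component C3, the alternative pathway genes Cfb and Cfp, and the receptor genes C3ar1 and C5ar1. They were taken by symbol from the 54838 gene identifiers in the count files, and 7 of the 8 passed the filter on low counts that kept 12612 genes. All cells were derived from Apoe-deficient mice, which are labelled B6.129P2-Apoetm1Unc/J by genotype and C57BL/6J by strain with no age given, and matured from marrow in medium conditioned by L929 cells. The 4 groups of 4 libraries were DMSO, TNFα (50 ng/ml for 24 h), TMP195+TNFα (TMP195 at 5 µM for 1 h before the same TNFα) and TPCA-1+TNFα (TPCA-1 at 500 nM for 1 h before the same TNFα). TMP195 inhibits class IIa histone deacetylases, and TPCA-1 inhibits IKK2, a kinase that activates NF-κB. The inhibitors are not analogs of each other, neither was given without TNFα, and the labels do not say whether the cells given TNFα alone also received DMSO. Nothing ties the replicates to separate animals or cultures, so p-values measure only the spread between these libraries, which may be technical.

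Complement is a cascade of plasma and tissue proteins that marks microbes, immune complexes and dying cells for removal. C1q recognises the target and starts the classical pathway, every pathway then cleaves C3, and the alternative pathway amplifies this through factor B, encoded by Cfb, with properdin, encoded by Cfp, holding its convertase together. Cleavage releases the peptides C3a and C5a, which act on myeloid cells through the receptors encoded by C3ar1 and C5ar1. C1q is made mainly by macrophages and other myeloid cells, whereas most plasma C3 is made by hepatocytes.

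In brief, C3 was the member that rose with TNFα, from a mean of 124 to a mean of 743 CPM (counts per 1e6 counted reads, scaled by TMM factors). C1qa, C1qb, C1qc, C3ar1 and C5ar1 fell, and Cfp did not pass the test. TPCA-1 lowered C3 in TNFα-treated cells, and the difference with TMP195 did not pass. TMP195 lowered Cfp, and C5ar1 was called lower with each inhibitor than with TNFα alone. In the main fit, which leaves out the replicate number, the C5ar1 calls depended on single libraries. Leaving out 1 library ended the TMP195 call in 1 of 8 fits and the TPCA-1 call in 5 of 8. It ended the call of C5ar1 for TNFα against DMSO in 4 of 8. With the replicate number as a block and all libraries kept, C5ar1 was called in both contrasts without TPCA-1. The edgeR adjusted p was 0.000529 for TNFα against DMSO and 0.000208 for TMP195+TNFα against TNFα.

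Each library held 7489066 to 31596572 counted reads, and a floor of 3 counts corresponded to 0.0949 to 0.401 CPM before TMM scaling. TPCA-1+TNFα replicate 2 was the shallowest; 44.0% of its reads did not map, where the other 15 libraries ranged from 4.0% to 7.11%. All 9 macrophage markers, led by Lyz2, were tested; they summed to 16719.8 to 25677.9 CPM in DMSO, 18126.3 to 26188.7 with TNFα, 12776.1 to 18134.3 with TMP195+TNFα and 13622.5 to 21528.3 with TPCA-1+TNFα. Of markers for other cells, the 6 fibroblast and stromal genes (Col3a1 at 0 throughout) summed to at most 0.297 CPM, and the 4 B cell genes (Pax5 at 0) and the 4 T cell genes to at most 0.243 and 0.196 CPM. Neutrophil markers (8 genes; Elane, Ngp and Retnlg at 0) summed to 14.8 to 22.1 CPM in DMSO, 19.1 to 30.4 with TNFα, 9.6 to 14.8 with TMP195+TNFα and 4.46 to 25.9 with TPCA-1+TNFα. The 7 erythroid and megakaryocyte genes (Hbb-bs and Alas2 at 0) moved with TNFα, from 1.53 to 1.89 CPM in DMSO to 3.83 to 9.66 CPM. The 4 endothelial genes (Tek at 0) stood at 7.93 to 10.97 CPM in DMSO, lower with TNFα at 4.26 to 7.51 CPM and higher with TPCA-1+TNFα at 15.8 to 40.1 CPM. The part of the moving lists in the results below was not tested. In these bulk cultures fewer cells of a type and less RNA per cell cannot be told apart.

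Promoter sequence upstream of the annotated start is shown for C3, the rising member, C1qb, the most abundant C1q chain, and Cfp, the member that TMP195 lowered and whose TNFα difference did not pass the test. RefSeq windows on GRCm38.p6 were found for 6 of the 8 members, C1qb, C1qc, C3, C3ar1, C5ar1 and Cfp. Each printed run holds the 250 bases before the RefSeq start, 5′ to 3′ on the minus strand that carries the gene. Capitals mark matches, on either strand, to any of 5 motifs: the κB consensus bound by NF-κB, TTGCNNAA (C/EBP type), GAGGAA (a core bound by PU.1), TGCTGA (found in MAF recognition elements) and an IRF-type pair of GAAA repeats 2 bases apart. No 2 matches overlapped.
C3 promoter, chr17:57228137-57228386: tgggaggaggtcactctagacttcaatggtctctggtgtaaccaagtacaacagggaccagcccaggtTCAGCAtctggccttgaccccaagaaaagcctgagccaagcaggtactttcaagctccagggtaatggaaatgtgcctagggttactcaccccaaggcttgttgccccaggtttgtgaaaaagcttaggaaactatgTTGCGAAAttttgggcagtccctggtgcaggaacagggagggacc
C1qb promoter, chr4:136886201-136886450: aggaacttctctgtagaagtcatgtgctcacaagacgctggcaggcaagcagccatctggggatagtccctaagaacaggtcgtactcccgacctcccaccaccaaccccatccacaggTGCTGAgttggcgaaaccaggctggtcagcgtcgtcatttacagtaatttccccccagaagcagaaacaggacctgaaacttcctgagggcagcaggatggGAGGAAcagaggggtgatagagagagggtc
Cfp promoter, chrX:20931556-20931805: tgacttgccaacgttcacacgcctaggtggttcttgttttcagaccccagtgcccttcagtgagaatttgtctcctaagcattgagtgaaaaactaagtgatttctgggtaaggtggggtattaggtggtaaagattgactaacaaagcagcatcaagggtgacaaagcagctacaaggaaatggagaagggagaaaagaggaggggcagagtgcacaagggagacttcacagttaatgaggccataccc

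The C3 run held the C/EBP-type letters 45 bases before the start and a MAF motif, read on the other strand, 182 bases before it. In the C1qb run the MAF motif began 131 bases and the PU.1 core 30 bases before the start, and the Cfp run held no match. Among the windows not printed, C1qc had a κB match (41 bases before its start) and a PU.1 core (193 bases), and C3ar1 and C5ar1 each had a MAF motif (144 and 17 bases). For C1qc and C5ar1 the RefSeq start (136892914 and 16259338) lies inside the gene as GENCODE draws it (start at 136893065 and 16259540), so the κB match of C1qc and the match of C5ar1 lie within those gene spans. Of 32851 such 250-base windows in the table, 3.9% held the κB consensus, 9.56% TTGCNNAA, 23.3% GAGGAA, 16.1% TGCTGA and 2.98% the GAAA pair. These matches describe the letters of the windows only.

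Abundance was compared between genes per kilobase of annotated exon. In DMSO, C1qb stood highest at 1648 ± 277 CPM per kb (SD, n = 4), followed by C3ar1 at 1007 ± 111 and Cfp at 611 ± 82.2 CPM per kb. C1qc was at 419 ± 84.5 CPM per kb, and C5ar1 (122 ± 30.7) and C1qa (104 ± 19.1) overlapped each other. What sets C1qa this far below C1qb per length was not tested, and its place in the order and the C1q ratios below carry that doubt. C3 was the lowest of the 7 in DMSO, at 24.1 ± 4.9 CPM per kb. With TNFα its level per length, 144 ± 22.8 CPM per kb, stood above those of C5ar1 (71.0 ± 17.2) and C1qa (51.8 ± 6.74) and just below C1qc (190.4 ± 33.0). C1qb (823 ± 151) remained first with TNFα, and Cfp (568 ± 91.7) and C3ar1 (539 ± 75.2) overlapped.

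**Figure D1:**
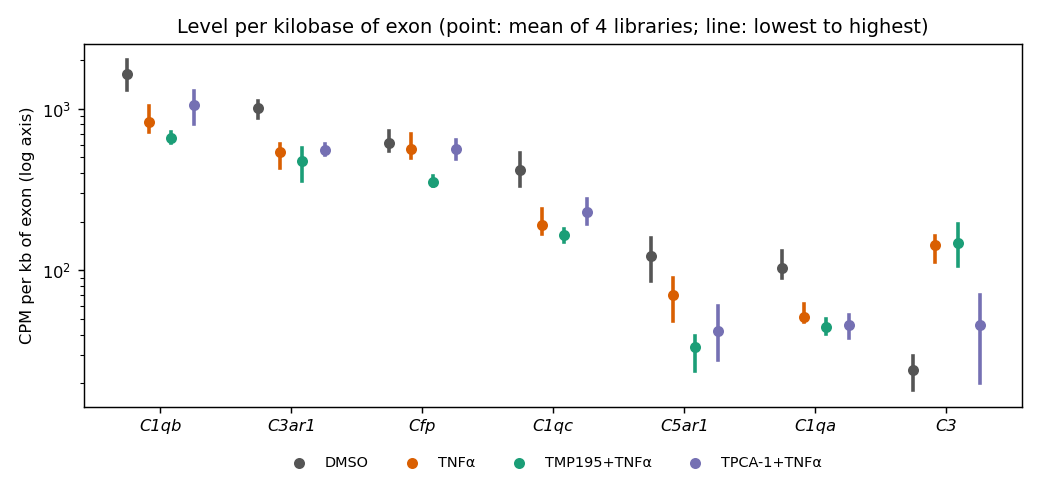
Level of 7 complement transcripts in CPM per kilobase of exon (log axis), by group; points are means of 4 libraries and lines run from the lowest to the highest library. C1qb was highest in every group, and C3 moved from last place in DMSO, at 24.1 CPM per kb, to 144 CPM per kb with TNFα.

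Cfb was too thinly counted to be compared. Of its 2825 exon bases (ENSMUSG00000090231, chromosome 17, 34856374 to 34862518), 2246 (79.5%) are shared on the same strand with the annotated gene Gm20547, which runs from 34856412 to 34882042 across Cfb and into C2. STAR's gene counts leave out a read that falls on more than one gene, so only 579 Cfb bases could collect reads. Over the 16 libraries Cfb held 17 reads and Gm20547 held 0. The TNFα libraries had 3, 3, 4 and 0 Cfb reads and the TMP195+TNFα libraries 2, 3, 1 and 1, while every DMSO and TPCA-1+TNFα library had 0. A count of 0 allows up to the floor given above, no fold change is given, and the gene stays out of the counts below. With no filter on low counts these reads gave Cfb an edgeR adjusted p = 0.0458 for TNFα against DMSO. The other 7 members share no exon bases with another gene.

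The first comparison asks how 24 h of TNFα changed complement transcripts. C1qa (ENSMUSG00000036887), C1qb (ENSMUSG00000036905) and C1qc (ENSMUSG00000036896) encode the A, B and C chains that assemble into C1q, and lie within 18675 bases of chromosome 4 (136895917 to 136898803, 136880129 to 136886187 and 136889804 to 136893065). All 3 fell. C1qb stood at 1748, 1431, 1830.0 and 2165 CPM in DMSO replicates 1 to 4 and at 813, 776, 856 and 1137 CPM with TNFα. No TNFα library reached the lowest DMSO library.

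C1qc had 833, 644, 738 and 1025 CPM in DMSO against 359, 325, 327 and 461 CPM with TNFα, and C1qa 100.1, 92.8, 102 and 137 against 51.5, 49.7, 50.1 and 64.3 CPM. Here too the groups did not overlap, and TNFα replicate 4 was the highest of its group for all 3 chains. On the log2 scale the changes were -1.01 ± 0.14 (SE) for C1qa, -1.002 ± 0.16 for C1qb and -1.14 ± 0.15 for C1qc (edgeR adjusted p = 3.46e-05, 0.000184 and 2.68e-05).

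C3 (ENSMUSG00000024164, chromosome 17, 57203970 to 57228136) went the other way. This component carries the thioester through which complement binds its target. Its DMSO libraries held 133, 93.5, 116 and 153 CPM and its TNFα libraries 841, 576, 805 and 749 CPM. Every TNFα library was thus above every DMSO library, and the change was 2.58 ± 0.29 on the log2 scale (edgeR adjusted p = 3.94e-06), a 5.99-fold rise. Cfp (ENSMUSG00000001128, chromosome X, 20925454 to 20931555), which encodes properdin, overlapped between the groups. It stood at 1056, 953, 969 and 1263 CPM in DMSO and 952, 863, 908 and 1218 CPM with TNFα (-0.11 ± 0.12, edgeR adjusted p = 0.616, 95% interval -0.37 to 0.16).

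Of the receptor genes, C3ar1 (ENSMUSG00000040552, chromosome 6, 122847138 to 122856161) encodes the receptor for C3a. Its levels were 4813, 4153, 4624 and 3753 CPM in DMSO and 2592, 2469, 2364 and 1855 CPM with TNFα, with no overlap. Replicate 4 was the lowest library in both groups, and the change was -0.90 ± 0.14 (edgeR adjusted p = 0.000116).

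C5ar1 (ENSMUSG00000049130, chromosome 7, 16246743 to 16259540) encodes the receptor for C5a. It went from 289, 221, 337 and 409 CPM to 173, 126, 201 and 229 CPM, with DMSO replicate 2 just under TNFα replicate 4, so the groups overlapped. The fall of 0.78 ± 0.24 passed with an edgeR adjusted p = 0.0261. Leaving out TNFα replicate 1 or 2 or DMSO replicate 3 or 4 ended this call, with an adjusted p = 0.0878 at most, without TNFα replicate 2. For each replicate number the TNFα library was below the DMSO library. With the replicate number as a block the fall was 0.79 ± 0.14 (edgeR adjusted p = 0.000529).

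In all, 1 of the 7 tested members rose and 5 fell after TNFα, where 23.4% of all tested genes were called (10.9% higher and 12.4% lower). The groups did not overlap for 5 members, a pattern that 27.2% of all genes showed. The median change was -0.90 over the 7 members and 0.0018 over all genes.

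**Figure D2:**
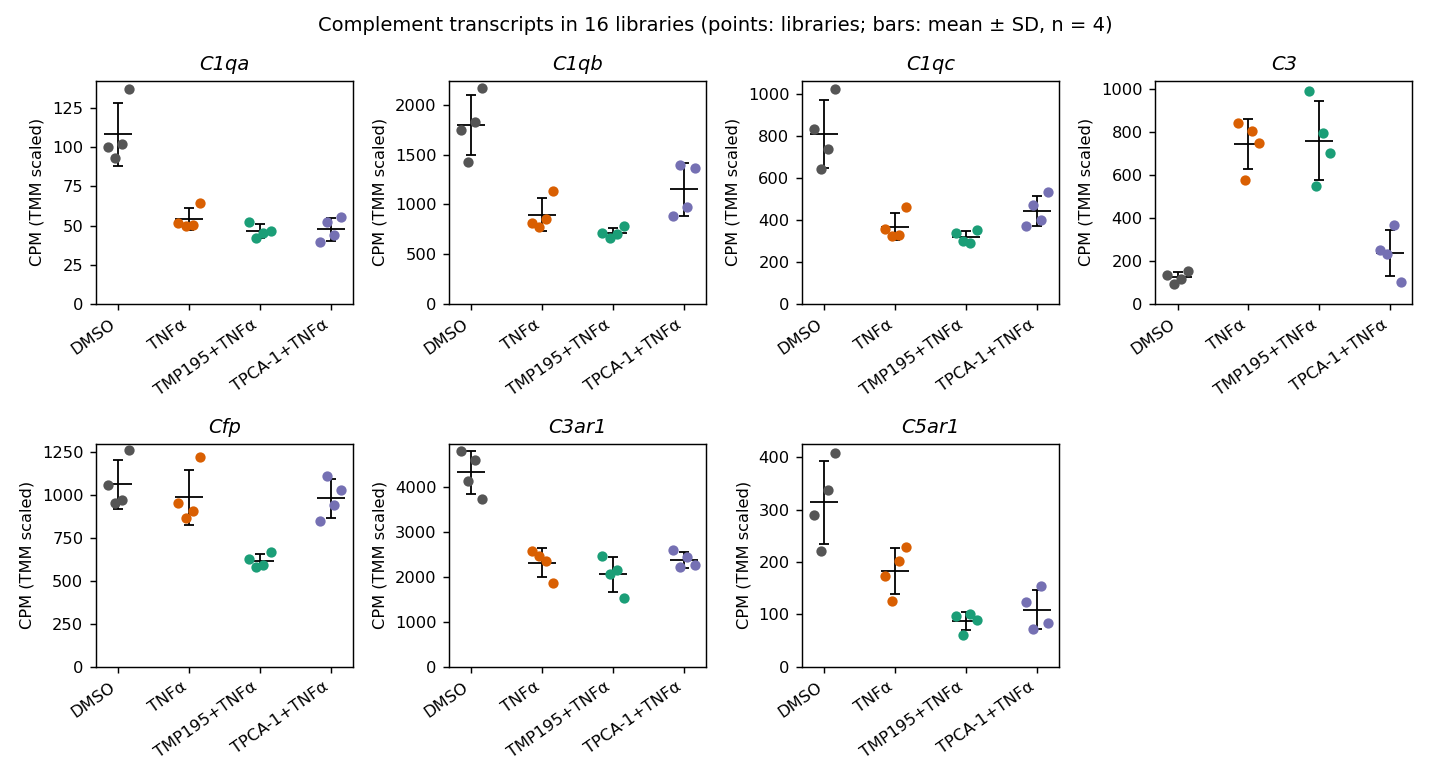
CPM of 7 complement transcripts in each of the 16 libraries (linear axes from 0); points are libraries, and bars give the mean ± SD of 4. C3 is the one panel in which TNFα alone lies above DMSO, with a mean of 743 against 124 CPM, and in the Cfp panel the TMP195+TNFα libraries lie below all others, at 579 to 668 CPM.

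The second comparison asks what TMP195 changed in cells stimulated with TNFα. Cfp and C5ar1 fell, and the other 5 tested members did not pass. Cfp stood at 624, 579, 589 and 668 CPM with TMP195+TNFα, every library below the lowest TNFα library (863 CPM), and its change was -0.68 ± 0.12 (edgeR adjusted p = 0.00387). C5ar1 stood at 97.4, 61.2, 100.8 and 88.4 CPM, again with no overlap with TNFα alone, a fall of 1.07 ± 0.25 (edgeR adjusted p = 0.0149). Without TMP195+TNFα replicate 2 its adjusted p was 0.0534. With all libraries and the replicate number as a block, the edgeR adjusted p of C5ar1 was 0.000208. The summed macrophage markers also ranged lower here, 12776.1 to 18134.3 CPM with TMP195+TNFα against 18126.3 to 26188.7 CPM, with a slight overlap. Lyz2 alone had a mean of 11334.5 CPM over all libraries, so the sum does not speak for each marker. With TPCA-1+TNFα the sum was 13622.5 to 21528.3 CPM. The part of these markers in the falls with either inhibitor was not tested.

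In the presence of TMP195, C3 stood at 989.9, 548, 795 and 700.3 CPM, a mean of 758 ± 185 CPM (SD, n = 4). The difference from TNFα alone was 0.03 ± 0.27 (edgeR adjusted p = 0.981), with a 95% interval from -0.54 to 0.60. Its sign changed without TMP195+TNFα replicate 1 or TNFα replicate 2.

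The C1q chains and C3ar1 had lower means with TMP195 that did not pass the test. C1qb was at 710.5, 666, 706 and 781 CPM (-0.32 ± 0.16, edgeR adjusted p = 0.307), C1qc at 337, 300.4, 288 and 349.9 CPM (-0.20 ± 0.15, adjusted p = 0.561) and C1qa at 52.4, 42.0, 45.3 and 46.5 CPM (-0.21 ± 0.14, adjusted p = 0.483). C3ar1 was at 2479, 2073, 2145 and 1532 CPM (-0.17 ± 0.14, edgeR adjusted p = 0.606), and each of these 4 genes overlapped with TNFα alone. With 2 of 7 members lower and 0 higher, the background for this contrast was 5.95% of genes called (2.95% higher and 3.0% lower). The same 2 members were those without overlap, which 15.0% of all genes showed. The members' median was -0.21, against 0.0151 over all genes.

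The third comparison sets TPCA-1+TNFα against TNFα alone. C3 and C5ar1 fell. C3 stood at 248, 233, 365 and 103 CPM, every library below the lowest TNFα library (576 CPM), and its change was -1.65 ± 0.28 (edgeR adjusted p = 0.000462). The C3 call held without the shallow TPCA-1+TNFα replicate 2, at an edgeR adjusted p = 0.00209. The spread within the group was wide, with replicate 4 at 103 CPM inside the DMSO range and replicate 3 at 365 CPM above it.

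C5ar1 stood at 124, 72.0, 154 and 84.1 CPM with TPCA-1+TNFα and overlapped with TNFα alone. Its fall of 0.74 ± 0.24 had an edgeR adjusted p = 0.0415, which limma put at 0.0607, and the call ended without TNFα replicate 1, 3 or 4 or TPCA-1+TNFα replicate 2 or 4 (adjusted p = 0.123 at most, without TPCA-1+TNFα replicate 4). Cfp, at 846, 1107, 938 and 1031 CPM, differed by -0.0072 ± 0.12 (edgeR adjusted p = 0.9749, 95% interval -0.27 to 0.25). Its sign turned without TPCA-1+TNFα replicate 1 or 3 or TNFα replicate 4.

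C3ar1, at 2613, 2218, 2454 and 2261 CPM, differed by 0.04 ± 0.14 (edgeR adjusted p = 0.863, 95% interval -0.25 to 0.33), with the other sign without TPCA-1+TNFα replicate 1 or TNFα replicate 4. The C1q chains did not pass, C1qb at 0.37 ± 0.16 (edgeR adjusted p = 0.128), C1qc at 0.27 ± 0.15 (adjusted p = 0.225) and C1qa at -0.18 ± 0.14 (adjusted p = 0.396). C1qb was called without TPCA-1+TNFα replicate 1 or without TNFα replicate 4 (lowest adjusted p = 0.0372), and by limma (adjusted p = 0.0383). Here 2 of 7 members were lower and 0 higher, with 19.4% of all genes called (9.67% higher and 9.72% lower). The groups did not overlap for 1 member, C3, and for 18.5% of all genes. The median over the members was -0.0072 and over all genes 0.022.

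**Figure D3:**
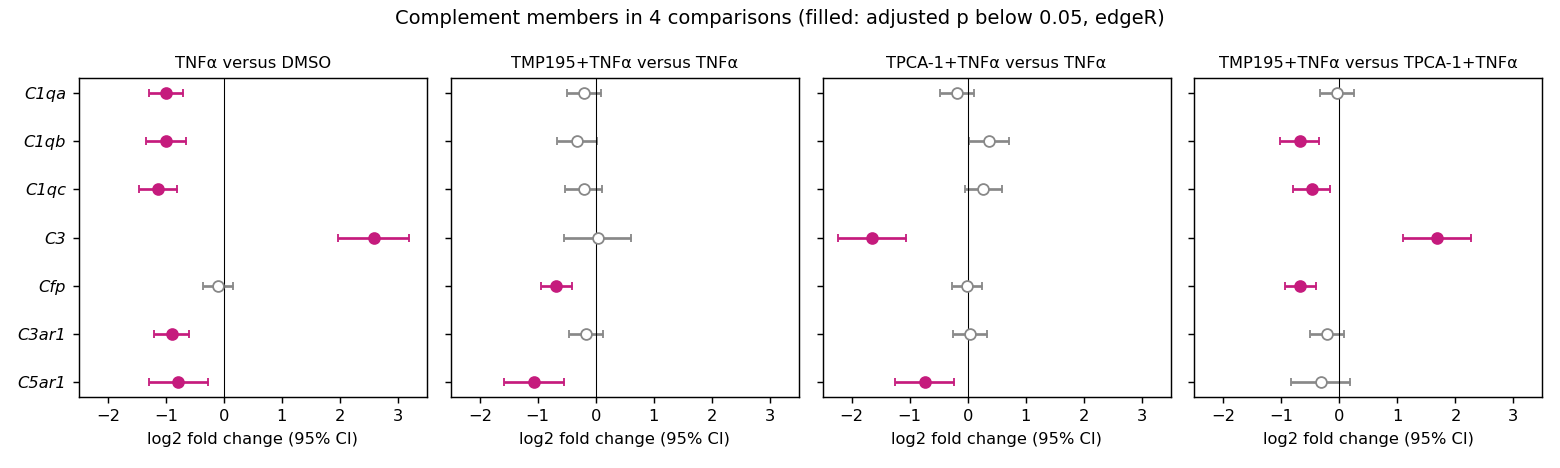
Log2 fold change with 95% confidence interval for 7 complement members in 4 comparisons (edgeR, 4 libraries against 4); filled points passed the adjusted threshold of 0.05. C3 is at 2.58 for TNFα against DMSO and -1.65 for TPCA-1+TNFα against TNFα, and Cfp is at -0.68 for TMP195+TNFα against TNFα.

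TMP195+TNFα and TPCA-1+TNFα were also compared directly. C3 was higher with TMP195 than with TPCA-1 by 1.68 ± 0.28 (edgeR adjusted p = 0.00029), while Cfp was lower by 0.67 ± 0.12 (adjusted p = 0.00074). C1qb was lower with TMP195 by 0.69 ± 0.16 (edgeR adjusted p = 0.00486) and C1qc by 0.48 ± 0.15 (adjusted p = 0.0288). The libraries of the 2 groups did not overlap for any of these 4 genes, a pattern that 23.6% of all genes showed. The call of C1qc ended without TMP195+TNFα replicate 2 or 3 or TPCA-1+TNFα replicate 2 or 4 (adjusted p = 0.108 at most, without TPCA-1+TNFα replicate 4).

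For C1qa (-0.04 ± 0.14, 95% interval -0.33 to 0.26), C3ar1 (-0.21 ± 0.14, -0.51 to 0.08) and C5ar1 (-0.33 ± 0.24, -0.84 to 0.19) the direct test did not pass (edgeR adjusted p = 0.877, 0.275 and 0.343). Leaving out TMP195+TNFα replicate 2 or TPCA-1+TNFα replicate 2 or 4 turned the sign of C1qa. The 4 called members, 1 higher and 3 lower, stand beside 25.7% of genes called in this contrast (13.1% higher and 12.6% lower).

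Against DMSO, all 7 tested members differed in TMP195+TNFα, with C3 higher (2.61 ± 0.29) and 6 lower, where 27.5% of genes were called (13.6% higher and 13.9% lower). None of the 7 overlapped with DMSO, as for 30.4% of all genes. C5ar1 was the lowest of these at -1.85 ± 0.25 (edgeR adjusted p = 2.34e-05), and Cfp, which had not passed with TNFα alone, stood at -0.79 ± 0.12 (adjusted p = 0.000123). In TPCA-1+TNFα 1 rose and 5 fell, with 30.3% of genes called (14.8% higher and 15.5% lower), and 5 did not overlap, as for 26.2% of all genes. C3 was still above DMSO there, by 0.94 ± 0.28 (edgeR adjusted p = 0.0158), although the groups overlapped. Without DMSO replicate 2 or TPCA-1+TNFα replicate 3 that call ended, and the value without the latter was 0.64 (adjusted p = 0.0749). C1qa (-1.18 ± 0.14), C1qb (-0.64 ± 0.16), C1qc (-0.87 ± 0.15), C3ar1 (-0.86 ± 0.14) and C5ar1 (-1.53 ± 0.25) were below DMSO with edgeR adjusted p values of at most 0.00681. These contrasts share their DMSO or TNFα libraries with the ones above.

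Ratios of C1qb and C1qc reads to C1qa reads were highest in the TPCA-1+TNFα libraries. No ratio passed after adjustment, which 4 libraries against 4 allow only if most of the tests show full separation. The adjusted test therefore cannot decide on single ratios. Because both counts of a ratio come from 1 library, no scaling between libraries enters it, and the ratios were chosen after the values were seen. C1qb had 17.5, 15.4, 17.9 and 15.8 reads per C1qa read in DMSO, and 15.8, 15.6, 17.1 and 17.7 with TNFα. TMP195+TNFα gave 13.6, 15.9, 15.6 and 16.8, whereas TPCA-1+TNFα gave 22.2, 26.7, 22.2 and 24.7. All 4 TPCA-1 libraries were above all 12 others.

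C1qc reads per C1qa read showed the same separation, at 9.43, 8.99, 9.12 and 9.61 with TPCA-1+TNFα against 6.36 to 8.32 in the 12 other libraries. Against TNFα alone the C1qb to C1qa ratio was 44.5% higher and the C1qc to C1qa ratio 36.6% higher. Each had p = 0.0286 in a 2-sided exact permutation test, the smallest that 4 against 4 can give, and 0.114 after Benjamini-Hochberg adjustment over 24 tests, so neither passed the adjusted threshold. Without TPCA-1+TNFα replicate 2 the log2 differences were 0.48 and 0.47, in place of 0.53 and 0.45, and the exact p was 0.0571, again the smallest possible.

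The C1qb to C1qc ratio, 2.36 to 2.97 with TPCA-1+TNFα and 2.27 to 2.62 with TNFα, overlapped between these groups (exact permutation p = 0.429). Reads of the receptor genes gave 8.09 to 19.6 C3ar1 reads per C5ar1 read with TNFα, 17.3 to 33.9 with TMP195+TNFα and 15.9 to 30.8 with TPCA-1+TNFα. Both inhibitor groups overlapped with TNFα alone (exact permutation p = 0.0571 for each, and 0.152 adjusted over the same 24 tests). This test leaves out the replicate number. For replicates 1 to 4 the ratio was 15.0, 19.6, 11.7 and 8.09 with TNFα and 25.5, 33.9, 21.3 and 17.3 with TMP195+TNFα. It was thus higher with TMP195 at every replicate number, and a paired test of the ratio was not run.

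**Figure D4:**
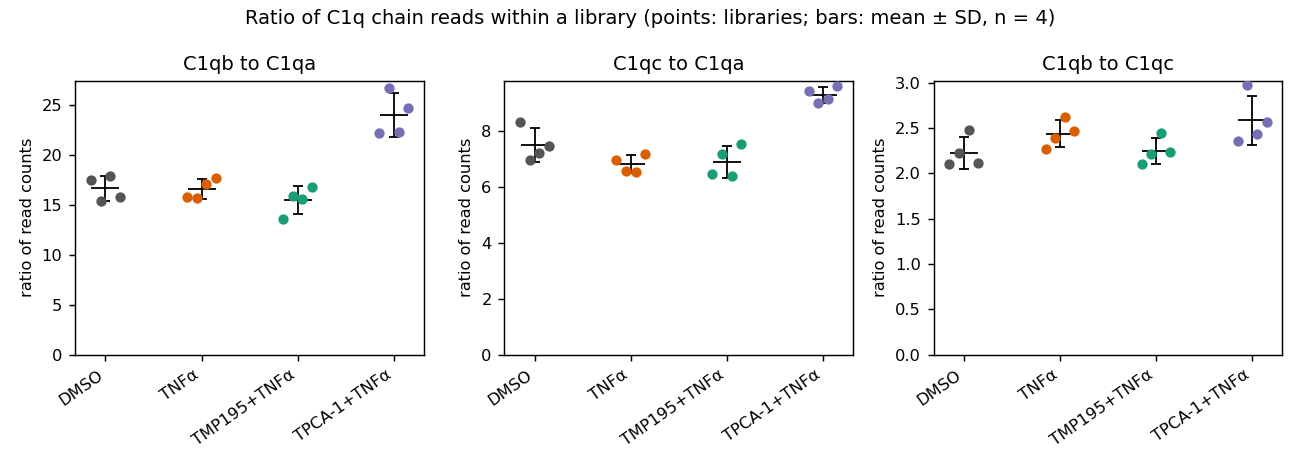
Ratio of read counts between C1q chain genes within each of the 16 libraries (linear axes from 0); points are libraries and bars give the mean ± SD of 4. The TPCA-1+TNFα libraries lie at 22.2 to 26.7 for C1qb to C1qa and 8.99 to 9.61 for C1qc to C1qa, above all other libraries.

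A wider list of 46 complement genes (classical, lectin, alternative and terminal pathway components, regulators and receptors) held 15 genes that were tested; the other 31 were too low, among them the C5 gene Hc, Cfd, Cfi and Serping1. After TNFα 2 of the 15 rose, where 23.4% of all genes were called and 10.9% were higher. These were Itgb2 (0.31 ± 0.10, edgeR adjusted p = 0.0271), which encodes the β2 integrin chain of complement receptors 3 and 4, and C1s1 (2.85 ± 0.76, adjusted p = 0.0109), a classical pathway protease gene with 5 reads in DMSO and 44 with TNFα over 4 libraries. The DMSO libraries held 2, 0, 2 and 1 C1s1 reads, under the floor of 3, so the size of this change is uncertain. With the replicate number as a block, which raised the calls over all genes to 32.0%, 2 rose and 3 fell, among the latter the membrane attack inhibitor gene Cd59a (-0.78 ± 0.16, edgeR adjusted p = 0.00112) and the lectin pathway gene Fcna (-1.35 ± 0.37, adjusted p = 0.00973). Leaving out single libraries gave 1 to 4 calls, since Itgb2 lost its call without DMSO replicate 1, 2 or 3 or TNFα replicate 3 or 4 (adjusted p = 0.0806 at most), and Fcna and Cd59a were called without TNFα replicate 2. The medians were 0.04 over the 15 genes and 0.0018 over all genes.

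With TMP195, 1 of the 15 fell relative to TNFα alone, where 5.95% of all genes were called and 3.0% were lower. This was Cd55, encoding decay-accelerating factor, a membrane regulator of C3 convertases. It stood at 177, 193, 124 and 119 CPM against 275, 341, 209.6 and 237 CPM with TNFα alone, without overlap (-0.79 ± 0.19, edgeR adjusted p = 0.0177). Its call ended without TMP195+TNFα replicate 3 or 4 or TNFα replicate 2 (adjusted p = 0.0688 at most). With the replicate block 4 of the 15 fell, where the block called 13.5% of all genes, with Itgam (-0.72 ± 0.13, edgeR adjusted p = 0.00134), Itgb2 (-0.30 ± 0.08, adjusted p = 0.0152) and Cd55b (-1.38 ± 0.34, adjusted p = 0.0122) beside Cd55. The medians over these 15 and over all genes were -0.05 and 0.0151.

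With TPCA-1, 3 of the 15 fell, where 19.4% of all genes were called and 9.72% were lower. Itgam, which encodes the α chain of complement receptor 3 and is a general myeloid marker, went from 81.1, 52.1, 92.6 and 84.0 CPM to 42.5, 37.3, 47.3 and 35.2 CPM (-0.93 ± 0.22, edgeR adjusted p = 0.00737), with no overlap. C1ra, encoding the protease C1r, went from 309 reads over 4 libraries to 30 (-2.97 ± 0.41, adjusted p = 6.9e-05). TPCA-1+TNFα replicate 4 held 1 C1ra read, under the floor of 3. C1s1 went from 44 reads to 6 (-2.33 ± 0.76, edgeR adjusted p = 0.0391), a call that ended without TNFα replicate 3 or 4 or TPCA-1+TNFα replicate 1, 3 or 4 (adjusted p = 0.125 at most). The TPCA-1+TNFα libraries held 0, 3, 3 and 0 C1s1 reads, at or under the floor of 3. C1ra, C1s1, Cd59a, Fcna and Cd55b lie outside the rule for named genes and were picked after their values were seen. The C1r and C1s proteases are those that C1q carries in the C1 complex, and in TMP195+TNFα both genes were higher than in TPCA-1+TNFα (3.18 ± 0.41 and 2.49 ± 0.75, edgeR adjusted p = 2.48e-05 and 0.0215). The latter was lost without TMP195+TNFα replicate 1 or TPCA-1+TNFα replicate 1 or 4 (adjusted p = 0.0745 at most). The medians were -0.28 over the 15 and 0.022 over all genes for TPCA-1+TNFα against TNFα.

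**Figure D5:**
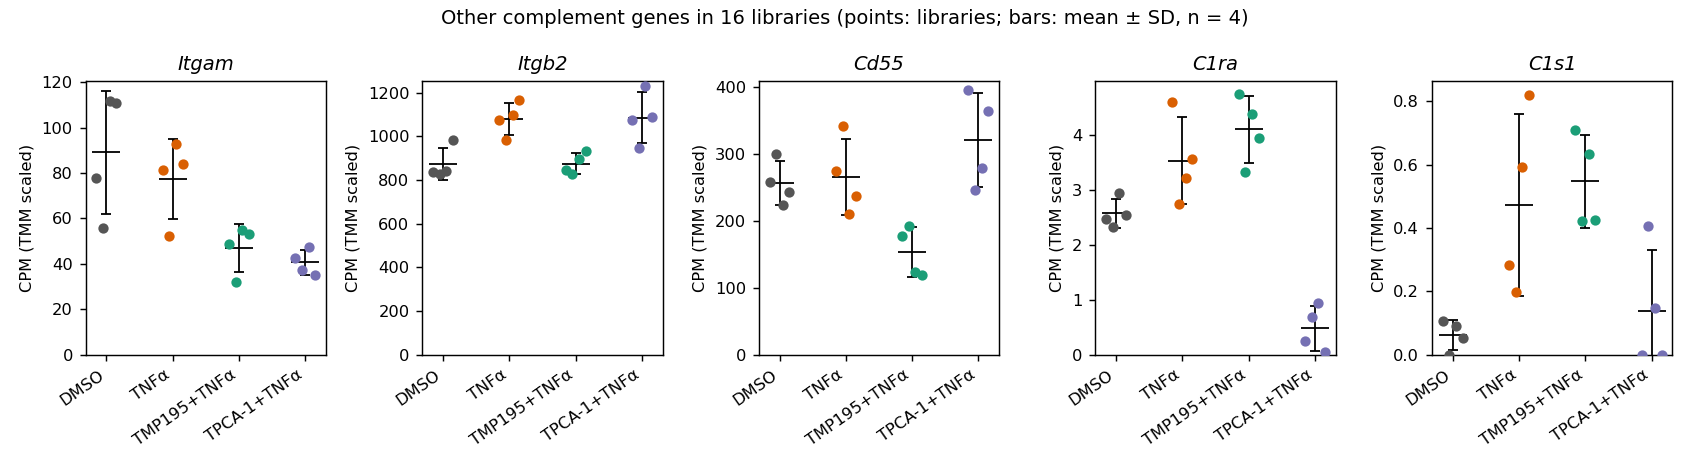
CPM of 5 further complement genes in the 16 libraries (linear axes from 0, different for each gene); points are libraries and bars give the mean ± SD of 4. Itgam lies at 35.2 to 47.3 CPM with TPCA-1+TNFα, below every TNFα library, and C1ra and C1s1 are low throughout, at no more than 4.75 and 0.82 CPM.

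Genes whose levels followed the members most closely were sought over the 16 libraries among 8559 genes, as a description: the points share group, library and scaling. The mean of the C1q chains was followed by Tbc1d14 (Pearson r = 0.983), Hmox2 (0.972) and Camk1 (0.96). For C3 the closest were the heparan sulfate proteoglycan gene Sdc1 (r = 0.979), the mitochondrial glycerol phosphate dehydrogenase gene Gpd2 (0.973) and H2-M2 (0.971). Gpd2 stood at 35.9, 144.7, 113.5 and 49.2 CPM in DMSO, TNFα, TMP195+TNFα and TPCA-1+TNFα. C3ar1 was closest to Gng2 (0.968), Wwp1 (0.965) and Rfc1 (0.963), and C5ar1 to Sh2b3 (0.946), Rgs14 (0.945) and Tnfrsf13b (0.937). Cfp was closest to B4galt1 (0.971), Arhgap4 (0.964) and the interleukin-6 receptor gene Il6ra (0.959). Like Cfp, Il6ra was lowest with TMP195+TNFα, at 17.1 CPM against 27.5 with TNFα, 30.1 with TPCA-1+TNFα and 34.6 in DMSO. Between members, r ran from 0.873 to 0.971 for pairs of C1q chains and was negative for C3 with each of the other 6.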

How the data were processed

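RNA from 16 libraries (4 groups of 4) was sequenced. The authors aligned reads with STAR 2.6.1d (builds mm10 and GRCm38), per the submitters' processing notes, and deposited raw read counts per gene, unnormalized; the annotation release is not given in the sources used here. Counts on the strand opposite the gene were used, the total of which was at least 5 times that of the other strand. Of 54838 identifiers, 54809 matched GENCODE M21 (the others held at most 0.00247% of a library), which gave symbols, coordinates and exon lengths. Uniquely mapped reads only are counted, and floors cover counting error only.

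The test was edgeR's quasi-likelihood F-test, 2-sided (edgeR 4.0.16, R 4.3.3), with TMM factors, filterByExpr and 1 model of 16 libraries with a mean per group, and Benjamini-Hochberg adjustment over 12612 genes and a threshold of 0.05; the code was tested on simulated data. Levels are TMM-scaled CPM, and likeness used log2(CPM + 0.5). The labels were the source of all groups. Replicates differed by more than counting error (chi-square per gene 13.6 to 75.7 over 24 pairs). Same-number libraries deviated together in the 3 pairs of groups without TPCA-1 (r 0.29 to 0.769). There the block is taken as pairing, a link seen in the data and not stated in the labels. In the pairs of groups with TPCA-1 same-number libraries deviated together only in part (r -0.11 to 0.601), and the block is not taken as pairing. Alternatives were DESeq2 1.42.0, limma 3.58.1 with sample weights, RLE factors, no filter, the block, unstranded counts, only the 2 groups compared, overlapping genes added and leaving out each library. Named were the 8 members, genes sharing their exon bases, other complement genes of at least 5 CPM past the threshold with TNFα or an inhibitor, and the 3 closest genes per pattern. Members and lists were chosen with earlier results of these data known. Some genes of the wider lists are not reported here.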

Additional observations from a re-analysis of the deposited data

Results flagged for a closer look

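Within groups of 4, 61 sets of values were searched for a library standing apart, and 3 were found; chance gives about 1 in 20. C1qa in TNFα replicate 4, at 64.3 CPM, lay above the other TNFα libraries, at 49.7 to 51.5 CPM. The other 2 are measures of TPCA-1+TNFα replicate 2. It held 7.49 × 1e6 counted reads against 20434846 to 20988494 in the rest of its group, and 44.0% of its reads did not map, against 4.88% to 5.76%.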

How the results depend on the processing

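Of 672 member fold changes under alternative settings, 635 kept their direction and side of the threshold, 18 lost a call, 6 gained one and 13 changed sign, the last all in values that passed no test. DESeq2, RLE factors, no filter, unstranded counts and adding overlapping genes changed none of the 42 calls or signs of the 7 tested members. With no filter Cfb was called as well for TNFα against DMSO (7 members called, where 10.8% of 25039 genes were called in place of 23.4%). In each case below the cause was not tested. For TPCA-1+TNFα against TNFα, limma gave -0.00898 for C3ar1 and 0.0576 for Cfp and the replicate block 0.00383 for Cfp, all on the log2 scale; limma also ended the call of C5ar1 (-0.64, adjusted p = 0.0607) and added C1qb (0.41, adjusted p = 0.0383). Members called there were 4 with the block (C1qb and C1qc added), which called 30.4% of all genes, and 1 with only the 2 groups compared, which called 12.9%, in place of 2 and 19.4%. Other complement genes called were, for TNFα against DMSO, 6 with limma and 5 with the block (main 2). Of all genes, limma called 34.9% there and the block 32%, in place of 23.4%. For TMP195+TNFα against TNFα the other complement genes called were 4 with DESeq2, 4 with limma, 4 with the block, 2 with no filter and 2 with only those groups (main 1). Shares of all genes called were 9.59%, 14.1%, 13.5%, 2.9% (of 25039 genes without the filter) and 7.46%, in place of 5.95%. For TPCA-1+TNFα against TNFα the other complement genes called were 5 with the block (main 3), and for TMP195+TNFα against TPCA-1+TNFα 3 with only those groups (main 5). The first setting called 30.4% of all genes in place of 19.4%, and the second 19.8% in place of 25.7%. Against DMSO, TMP195+TNFα gave 9 with limma and 8 with no filter, and TPCA-1+TNFα 8 with the block and 3 with only those groups (main 5 each). For TMP195+TNFα these settings called 39% and 12.9% of all genes in place of 27.5%. For TPCA-1+TNFα they called 41.1% and 24.7% in place of 30.3%. Among groups taken as paired, the block changed no member call. The TPCA-1+TNFα libraries deviated only in part with same-number libraries of the other groups. For replicate 1, r was 0.422 to 0.601, and for replicate 2, -0.11 to -0.032. Replicates 3 and 4 lay between, at 0.0772 to 0.298. TPCA-1+TNFα replicate 2 deviated more with replicate 4 of the other groups (r 0.332 to 0.438), and the reason was not tested. In these pairs of groups 4 or 5 of 8 libraries correlated best with their own number.

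Leaving out each library, members called ranged from 5 to 6 (TNFα against DMSO), 1 to 2 (TMP195+TNFα against TNFα), 1 to 3 (TPCA-1+TNFα against TNFα), 3 to 4 (between inhibitors), 7 to 7 (TMP195+TNFα against DMSO) and 5 to 6 (TPCA-1+TNFα against DMSO), and other complement genes from 1 to 4, 0 to 1, 2 to 3, 3 to 5, 4 to 7 and 3 to 6. The shares of all genes called in these fits are not reported here. Log2 changes that turned sign ranged from -0.130 to 0.157 for C3 (TMP195+TNFα against TNFα), -0.0617 to 0.0900 for C3ar1 and -0.0775 to 0.102 for Cfp (TPCA-1+TNFα against TNFα), and -0.113 to 0.0503 for C1qa (between inhibitors). The alternative for the C1q ratios was chosen after seeing the data. At the shallowest depth the floor of 3 counts is 0.401 CPM, which limits Cfb and C1s1. Libraries under 3 reads also make the printed changes of Fcna, Cd55b and C1ra uncertain in size. These were TNFα replicate 1 for Fcna (1 read), TMP195+TNFα replicate 3 for Cd55b (2 reads) and TPCA-1+TNFα replicate 4 for C1ra (1 read).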
